A study of Mus musculus with 16 samples.

Results

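Loss of Kmo was examined in inguinal fat, the white adipose depot under the skin of the groin, of male mice fed chow. The comparison is of 4 libraries labelled Kmo-KO on chow against 4 labelled wild-type (WT) on chow, which are 8 of the 16 samples. The other 8 samples, from mice on a high-fat diet, entered the statistical model for the scaling, the filter on low counts and the estimate of spread, but not the contrast. The knockout (KO) mice lacked Kmo in the whole body, the WT mice were their littermates, and all were 6 to 7 months old. The targeted exons, the strain background and the litter of each animal are not given in the sources used here. Each library was labelled as a separate replicate of its group. Members were the libraries with these titles, matched to the count columns by the animal code in each sample's description, and the comparison was made across 16549 genes with enough counts, of 55487 in the count table.

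Kmo encodes kynurenine 3-monooxygenase, a flavin enzyme of the outer mitochondrial membrane. Most tryptophan that is not built into protein is opened by the dioxygenases Tdo2, Ido1 and Ido2 and released as kynurenine, which then meets a fork. Kmo turns it into 3-hydroxykynurenine on the way to quinolinic acid and NAD, whereas the kynurenine aminotransferases turn it into kynurenic acid, a ligand of the receptor Gpr35. Kynurenine can also act as a ligand of the aryl hydrocarbon receptor, Ahr. Subcutaneous fat of mice lies around a lymph node and next to muscle and skin, so that a dissected pad can carry RNA of these tissues.

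The 8 libraries held 14680422 to 15903991 counted read pairs, so that a CPM of 1 (counts scaled to library size with TMM factors) stood for 14.8 to 16.6 counts. Adipocyte genes were abundant in all 8: Adipoq, which encodes adiponectin and was not chosen by the rule for named genes, lay between 1610 and 2704 CPM, and Fabp4, the adipocyte fatty acid binding protein, between 8629 and 16615 CPM. The libraries stood apart mainly in lymphoid and skeletal muscle transcripts, and the source of these was not tested. A lymphoid score, averaged as log2 CPM over 28 markers of T and B cells, was 2.75, 4.80, 0.07 and 5.77 in WT replicates 1 to 4 and 4.66, 1.42, 5.59 and 0.43 in KO replicates 1 to 4. Each group therefore held a pair of libraries with a score above 4 and a pair below 3, and the ranges coincided. The skeletal muscle score was 5.13, 2.49, 7.24 and 1.56 in WT and 5.14, 0.64, 0.70 and 5.38 in KO, with WT replicate 3 the highest of the 8. In bulk tissue, fewer cells of a type and less RNA per cell cannot be told apart.

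**Figure D1:**
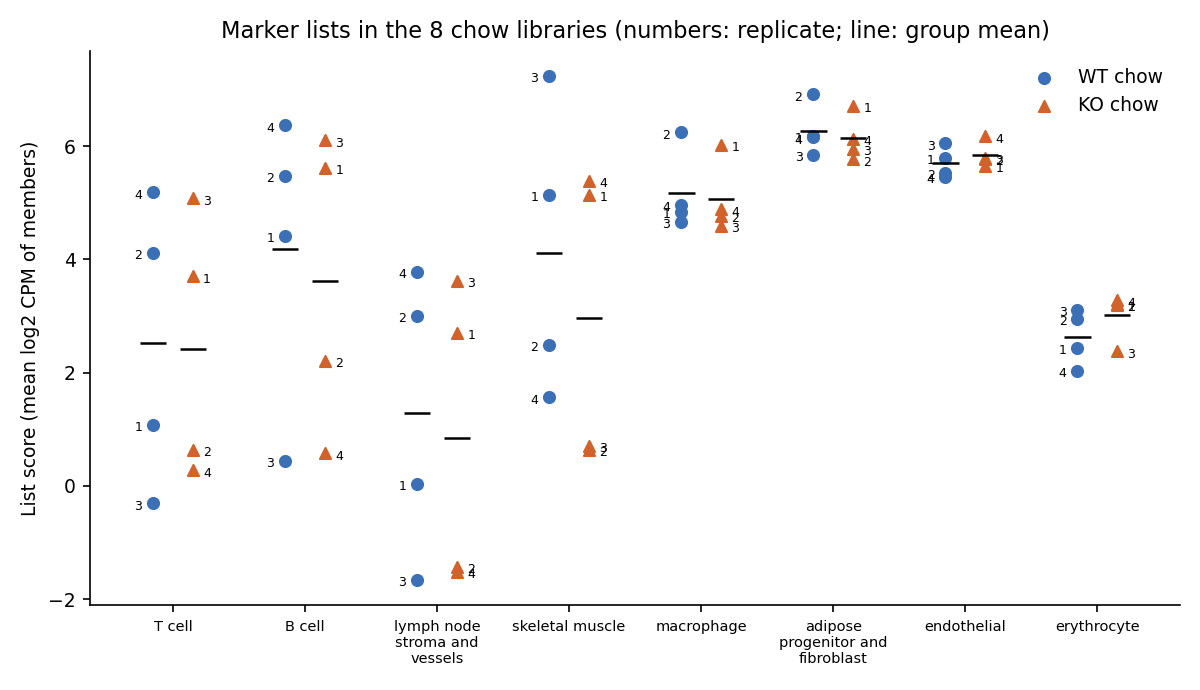
Scores of 8 marker lists (mean log2 CPM of the members, y axis) in the 4 WT (circles) and 4 KO (triangles) chow libraries, with replicate numbers and group means (lines). T cell, B cell, lymph node and muscle scores spread over more than 5 log2 units within the 8 libraries, and the groups overlap in each list shown.

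The first principal component of the 8 libraries took 52.6% of the variance and was led by lymph node genes such as Ccl21a, Ccl19 and Fcer2a, and the second, with 17.3%, by muscle genes such as Pvalb and Actn3. On the first component the WT libraries stood at 23.9, −32.2, 71.0 and −68.4 and the KO libraries at −22.4, 30.6, −59.3 and 56.7, so genotypes were interleaved. By the chi-square distance of their counts, 7 of the 8 libraries had their nearest neighbour in the other genotype. WT replicate 2 was nearest to KO replicate 1, with 13.3 per gene, and WT replicate 4 to KO replicate 3, with 14. No pair of libraries differed by as little as sampling noise. WT replicate 2 came from a single sequencing lane per the column names, and the other 7 were merged over lanes.

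Kmo was the check of the genotype and the 1 gene that passed the test. Its transcript (ENSMUSG00000039783, chromosome 1, 175620381 to 175662116, plus strand, GRCm38) was counted 117, 236, 40 and 298 times in the WT libraries and 2, 8, 3 and 3 times in the KO libraries. In CPM these were 7.62, 14.6, 2.66 and 19 in WT and 0.126, 0.543, 0.181 and 0.188 in KO. The groups did not overlap, and the lowest WT library, replicate 3, stood at 2.66 CPM against 0.543 CPM in the highest KO library. The genotype labels therefore held in all 8 libraries. The log2 fold change was −5.38 (SE 0.70, 95% interval −6.88 to −3.88, edgeR quasi-likelihood test, adjusted p = 0.0253). From 691 counts in WT and 16 in KO, WT had 43.9 times the level of KO (counting interval 26.8 to 77.2), and the KO mean was 2.36% of the WT mean. A two-sided exact permutation test of the CPM gave p = 0.0286, the smallest that 70 splits of 4 against 4 can give.

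Within WT, Kmo differed 7.15 times between the highest and the lowest library, and its order over the 4 libraries was that of the lymphoid score: 2.66 CPM at a score of 0.07, 7.62 at 2.75, 14.6 at 4.80 and 19 at 5.77. In KO, Kmo was highest (0.543 CPM) in replicate 2, with a lymphoid score of 1.42, and was 0.181 CPM at the highest score, 5.59. The macrophage score did not have that order, with 6.24 in WT replicate 2 and 4.96 in WT replicate 4. The skeletal muscle score had the exact reverse order, with 7.24, 5.13, 2.49 and 1.56 in WT replicates 3, 1, 2 and 4. The adipocyte and endothelial scores of the WT libraries were in that reverse order too. An order over 4 libraries therefore does not single out the lymphoid score. With the lymphoid score as a covariate the log2 fold change of Kmo was −5.05 (edgeR adjusted p = 0.00134), with the muscle score −5.58 (edgeR adjusted p = 0.00255), and with both −5.33 (edgeR adjusted p = 7.32e-05). Without the 4 libraries whose lymphoid score exceeded 4, a choice made after seeing the data, it was −3.80 (SE 0.84, edgeR adjusted p = 1), Kmo ranked 3 by p and the call was lost. The part of lymph node cells in the Kmo level of WT fat was not tested.

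**Figure D2:**
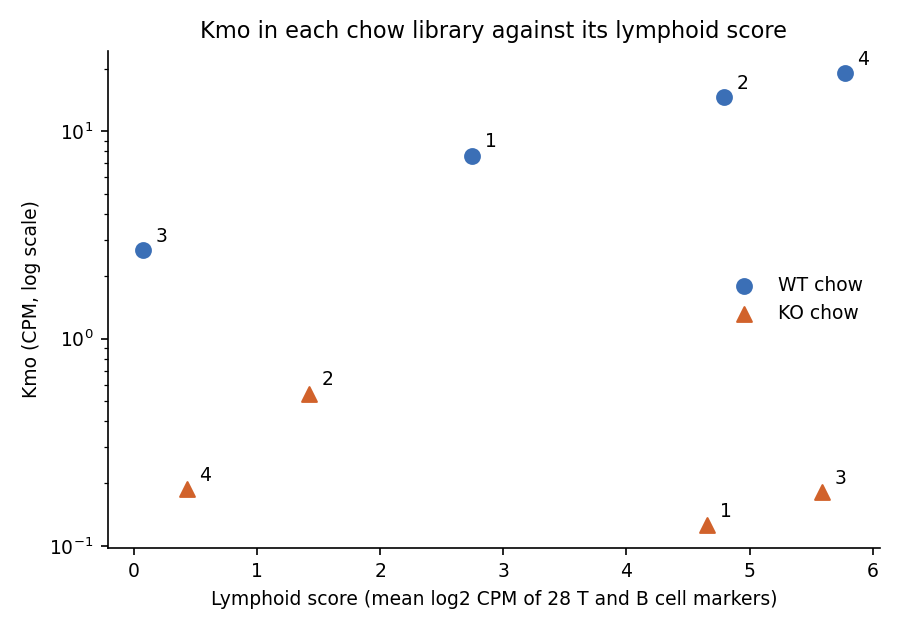
Kmo level (CPM, log axis) of each chow library against its lymphoid score (mean log2 CPM of 28 T and B cell markers), with replicate numbers. WT libraries (circles) run from 2.66 CPM at a score of 0.07 to 19 CPM at 5.77, and KO libraries (triangles) lie between 0.126 and 0.543 CPM over the same range of scores.

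The call of Kmo was lost when any of 12 of the 16 libraries was left out, among them all chow libraries but WT replicate 3, with log2 fold changes from −5.99 to −4.98 and an edgeR adjusted p of at most 0.267. It was also lost with the 8 chow libraries alone (−5.39, edgeR unadjusted p = 5.66e-05, adjusted p = 0.894, over 15797 genes). The same held with limma-voom with quality weights (−5.20, limma unadjusted p = 0.00138, adjusted p = 0.9999, over 16549 genes). Kmo ranked first by p in both of these fits. It also ranked first in all 16 fits that left out 1 library, and in 11 of the 12 other settings. In the authors' deposited table its shrunken value was −5.26 on the log2 scale, at an adjusted p of 2.19e-12 from their DESeq2 run.

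Apart from Kmo, no gene passed the test. Kmo was 1 call among 16549 genes tested (0.00604%), and the smallest edgeR adjusted p of any other gene was 0.99995. An unadjusted p under 0.05 was reached by 166 genes, 1% of those tested. That is below the share of 0.05 that a calibrated test gives where no gene differs, and the cause was not tested. Groups without overlap were found in 92 genes (0.556%), with KO above WT in 43 (0.26%) and below in 49 (0.296%). The log2 fold changes were centred on 0, with a median of −0.0048, 48.6% above and 51.4% below. Absolute log2 fold changes over 1 were estimated for 202 genes (1.22%). In the authors' deposited table, which holds 22073 genes, 148 had an unadjusted p under 0.05, and 3 genes besides Kmo had an absolute shrunken log2 fold change over 0.1. These were Pkp4, at 0.23, Gm42047, a predicted gene of chromosome 8, at 0.98, and Lor, the gene of the skin protein loricrin, at 2.41 in the authors' deposited table. Gm42047 and Lor, which the rule for named genes did not choose, were looked at for that reason. Lor had 2, 2, 4 and 1 counts in WT and 66, 5, 9 and 6 in KO, too few to be tested, and Gm42047 had 61, 154, 68 and 68 counts in WT and 96, 143, 420 and 279 in KO. KO replicate 1 held most of the Lor counts, and the Gm42047 counts overlapped.

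**Figure D3:**
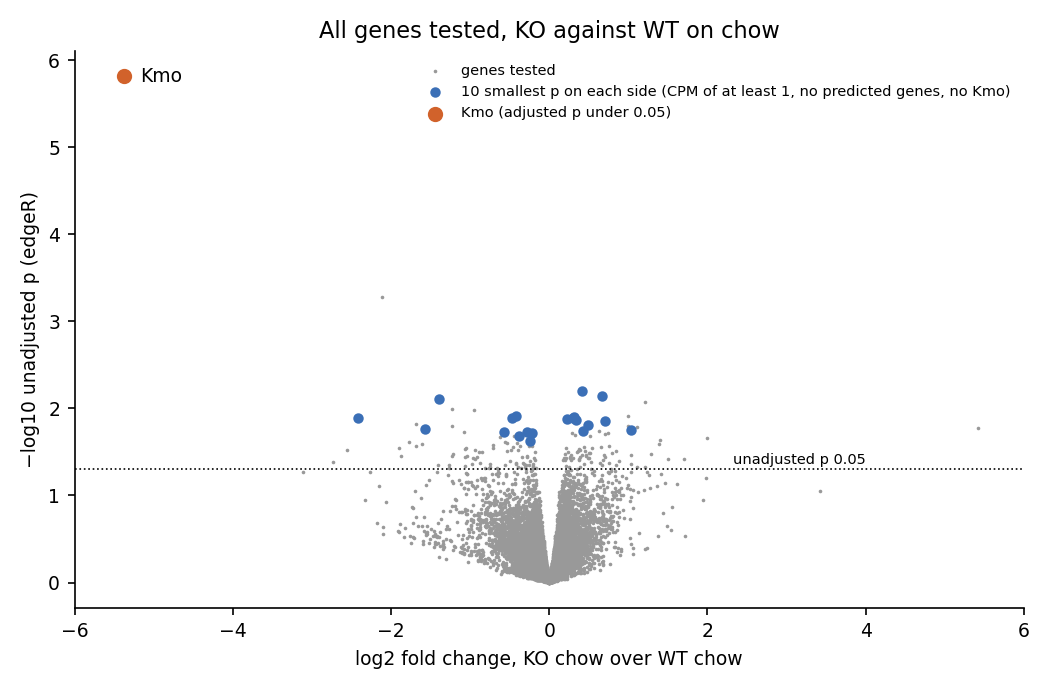
All 16549 genes tested, with the log2 fold change of KO over WT on chow (x axis) and −log10 of the unadjusted edgeR p (y axis). Kmo, at −5.38, stands alone at the top left, and the dotted line marks an unadjusted p of 0.05, which 166 genes passed.

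The interval of each gene gives the range of change that this fit allowed for it. The median half-width of the 95% interval was 0.43 on the log2 scale. For 12193 genes (73.7%) the interval lay within 1 of 0 in both directions, that is within a doubling or halving. For 8672 genes (52.4%) it lay within a 1.5-fold change. With the 8 chow libraries alone, 11655 of 15797 genes had an interval within 1 of 0. Precision followed the level. Of the 1720 genes with a mean of at least 100 CPM, 97.0% had an interval within 1 of 0, and of the 8085 genes between 10 and 100 CPM, 93.3%. Below 1 CPM this held for 7.25% of 1863 genes, and the median half-width there was 1.15.

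The 10 genes with the smallest p on each side, among those with at least 1 CPM in a group, had log2 fold changes from 0.23 to 1.04 above 0 and from −2.42 to −0.22 below 0. They were chosen by p, so the lack of overlap in some of them describes the choice. Pkp4, plakophilin 4 of cell junctions, stood at 45, 44.4, 40.8 and 42.3 CPM in WT and at 49.3, 70.3, 55.8 and 55.2 CPM in KO, with KO above WT throughout (log2 fold change 0.42, SE 0.13, unadjusted p = 0.00633, edgeR adjusted p = 1). Ripply3, a transcriptional corepressor of development, stood at 2.02, 2.54, 2.59 and 2.62 CPM in WT and at 3.77, 3.39, 4.23 and 4.13 CPM in KO (0.67, SE 0.22). Both groups were tight and did not overlap. Mtx1, the outer membrane import protein metaxin 1, and Mrps18b, a subunit of the mitochondrial ribosome, were separated in the same way, Mtx1 at 17.3 to 20 CPM in WT and 20.8 to 24.1 CPM in KO, and Mrps18b at 9.56 to 12.4 CPM in WT and 13 to 15.8 CPM in KO. Cmtm4 (0.30) and Cngb1, a subunit of a cyclic nucleotide-gated channel (1.04), completed the 6 of 10 genes on this side without overlap. S100b, a calcium-binding protein of glia and adipocytes, had a log2 fold change of 0.71, and its KO values of 13.7, 24.3, 15.4 and 31.9 CPM overlapped those of WT, 10.6 to 14.1 CPM. Impa1, Rpusd3 and St3gal6 had 0.31, 0.49 and 0.43 and overlapped as well.

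On the other side, 1 of the 10 genes had no overlap. Plekha5 stood at 33.2, 38.2, 32.3 and 34.8 CPM in WT and at 28.1, 30.6, 28.4 and 27.1 CPM in KO (log2 fold change −0.28, SE 0.11). Cers6, a ceramide synthase, stood at 28.7, 26.9, 21.9 and 17.3 CPM in WT and at 21.3, 15.7, 17.045 and 16.9 CPM in KO (−0.42, SE 0.15), with WT replicate 4 inside the KO range. Mlana, a melanocyte gene, had 15, 35, 8 and 11 counts in WT and 5, 9, 4 and 8 in KO (−1.39, SE 0.46), and of the other melanocyte markers Pmel stood at −0.17, Dct at −0.34, and 2 of 5 were not tested. Egr2 and Slfn4 had log2 fold changes of −2.42 and −1.57, and reached 52.3 and 17.6 CPM in WT replicate 3 against at most 4.79 and 3.52 CPM in the other 7 libraries. Without that library they stood at −0.35 and −0.47. The remaining genes, Ntn3, Dhx8, Nectin1, Klhl18 and Chml, ranged from −0.57 to −0.22. The edgeR adjusted p of each of these 20 genes was 0.99995.

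A further pair of genes outside the rule was singled out after their values were seen. Gm44256, a predicted gene with a single short model on chromosome 7 (3337545 to 3337879), ranked after Kmo by p, with 11, 5, 15 and 13 counts in WT and 1, 4, 3 and 2 in KO (log2 fold change −2.11, unadjusted p = 5.21e-04, edgeR adjusted p = 1). Cck, the gene of the peptide cholecystokinin, had 0 counts in all 4 WT libraries and 12 and 9 counts in KO replicates 2 and 4, with 0 in KO replicates 1 and 3. A count of 0 in a library allows up to 3 counts, so the KO group was divided on Cck at this depth.

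The kynurenine pathway around Kmo was present at low levels, and no other enzyme of it passed the test. Of 22 listed genes of the pathway and of NAD synthesis, 18 were tested. Beside Kmo, 10 of 17 lay above 0 and 7 below, with a median of 0.09 against −0.0048 over all genes, a range from −0.37 to 0.34, and 12 intervals within 1 of 0. The entry enzymes were scarce. Tdo2 stood at 1.82, 5.46, 0.998 and 2.17 CPM in WT and at 4.59, 1.36, 1.75 and 1 CPM in KO, while Ido1 and Ido2 had 33 and 29 counts over the 8 libraries together and were not tested. Afmid, the formamidase that releases kynurenine, stood at 2.81 ± 1.23 CPM in WT and 2.98 ± 1.24 CPM in KO (SD, n = 4).

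On the arm below Kmo, Kynu (kynureninase), Haao (3-hydroxyanthranilate dioxygenase) and Qprt (quinolinate phosphoribosyltransferase) varied widely within both genotypes. Haao stood at 6.84, 11.3, 1.60 and 26.7 CPM in WT and at 13.8, 2.71, 19.8 and 2.25 CPM in KO, and Kynu at 1.24, 2.92, 0.0665 and 4.47 CPM in WT and at 3.02, 0.136, 3.51 and 0.0625 CPM in KO. For both genes the 4 libraries with a lymphoid score above 4 were the 4 highest of the 8, in WT and KO alike. The groups overlapped, and the intervals were wide: −0.27 for Haao (−2.77 to 2.24) and −0.37 for Kynu (−3.52 to 2.79). Qprt stood at 0.521, 2.48, 0.399 and 3.77 CPM in WT and at 2.52, 0.882, 2.30 and 1.38 CPM in KO. Per length, in FPKM, Haao (2.48) and Kmo (2.33) were at nearly the same level in WT, and Kynu was at 0.353. Acmsd had 27 counts over the 8 libraries and was not tested.

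The aminotransferases of the other arm varied less between libraries than Kynu, Haao and Qprt. Kyat1 stood at 12.9, 12.8, 13.9 and 15.1 CPM in WT and at 13.6, 20.3, 15.3 and 15.3 CPM in KO (log2 fold change 0.24, 95% interval −0.04 to 0.51), the smallest unadjusted p of the pathway beside Kmo, 0.0875. Kyat3 had 0.16 (−0.26 to 0.58) and Got2 −0.02 (−0.46 to 0.42). Over the 8 libraries Kyat3 ranged from 17.8 to 29.5 CPM and Got2 from 18.2 to 35.6 CPM. Aadat had no count in any of the 8 libraries. For these 3 tested enzymes a doubling lay outside the interval in either direction.

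No gene of NAD synthesis from other precursors passed the test either. Nampt, which sets the rate of NAD salvage, was measured at 141, 117, 156 and 140 CPM in WT and at 123, 240, 157 and 126 CPM in KO, with KO replicate 2 high and the other 7 between 117 and 157 (log2 fold change 0.22, SE 0.18). Nnmt, which methylates nicotinamide, ranged from 100.1 to 204 CPM in WT and 128 to 272 CPM in KO (0.22, SE 0.23). Nmnat1, Nadsyn1 and Nmrk1 had 0.19, 0.18 and 0.19, and Nmnat3, Naprt and Nadk −0.01, −0.02 and 0.07, with all 6 intervals within 1 of 0. Nmnat2 had 0.34, with an interval from −0.48 to 1.16.

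The carriers and receptors of kynurenine and kynurenic acid gave 7 genes above 0 and 6 below among 13 tested, with a median of 0.06 and no call. Gpr35 stood at 0.782, 2.85, 1.26 and 4.15 CPM in WT and at 2.77, 0.339, 3.02 and 1.69 CPM in KO (−0.21, SE 0.59), again with its highest values in libraries of high lymphoid score. Slc7a5, the light chain of the large neutral amino acid carrier that takes up kynurenine, was above 6 CPM in the 4 libraries of high lymphoid score and below 4 CPM in the others (−0.25, SE 0.41). Its heavy chain Slc3a2 ranged from 76.5 to 123 CPM (0.06, SE 0.17), and Slc7a8, Slc16a10 and Slc36a4 had −0.16, 0.13 and −0.09. Ahr stood at 9.78 to 14.1 CPM in WT and 9.19 to 17.1 CPM in KO (0.11, SE 0.20), and its partner Arnt had −0.01 with an interval from −0.17 to 0.15. The estimates of the Ahr target genes were near 0 as well: Cyp1a1 −0.01, Cyp1b1 0.12, Tiparp 0.12, Nqo1 0.07, and the repressor Ahrr 0.27. The intervals of Cyp1b1, Tiparp and Nqo1 lay within 1 of 0. Those of Cyp1a1 (−1.10 to 1.08, at 0.434 to 2.74 CPM) and Ahrr (−0.56 to 1.11) reached past a doubling.

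Genes beside Kmo on chromosome 1 were examined because a knockout allele carries its neighbourhood along. Within 2 Mb lay 91 other genes, of which 23 were tested. None was called, none had groups without overlap, 7 lay above 0 and 16 below, and the median was −0.10, with a range from −1.05 to 0.28. The 2 genes with an unadjusted p under 0.05 were the 2 that follow Kmo on the chromosome. Opn3, an opsin gene whose 3′ end lies 0.305 kb past the end of Kmo (175662421 to 175692776, minus strand), stood at 24.2, 18.4, 20.2 and 13 CPM in WT and at 13.8, 15.5, 11.3 and 12 CPM in KO (log2 fold change −0.53, SE 0.21, unadjusted p = 0.0249, edgeR adjusted p = 1). Chml, a Rab escort protein gene (175682237 to 175692901, minus strand), stood at 29.9, 22.3, 23.7 and 16.5 CPM in WT and at 16.7, 21.2, 14.5 and 13.9 CPM in KO (−0.48, SE 0.17, unadjusted p = 0.0128, edgeR adjusted p = 1). In both genes WT replicate 4 lay within the KO range. Opn3 and Chml overlap each other, so their counts are uncertain. Fh1, fumarate hydratase, overlaps the start of Kmo on the opposite strand, and since strand was not used in the counting, reads of the shared stretch cannot be told apart; Fh1 stood at 169 to 221 CPM in WT and 156 to 274 CPM in KO (0.08, SE 0.16). Rgs7 had −0.20. Farther off, 6 of 8 tested interferon-inducible genes with Ifi in their name lay below 0 and 2 above, where 51.4% of all genes lay below. Mndal, which lies among them and was not counted, had −0.08 (SE 0.42). Ifi209, Ifi208, Ifi203 and Mndal had their 4 highest values in the 4 libraries with a lymphoid score above 4. Ifi211, Ifi207, Ifi205, Ifi204 and Ifi203-ps did not. Ifi211, Ifi207, Ifi205, Ifi209, Ifi203 and Ifi204 had −0.46, −0.40, −0.34, −0.31, −0.19 and −0.17, and Ifi203-ps and Ifi208 had 0.05 and 0.28, the last with an interval from −2.61 to 3.16. These Ifi genes are near copies of each other, and their counts may be split.

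Mitochondrial and heat-producing gene groups had medians above 0, and KO replicate 2 was the highest library in most of their genes. All 24 genes of fatty acid oxidation lay above 0, with a median of 0.20, where 48.6% of all genes did and the median was −0.0048. None was called, and none had groups without overlap. In 21 of the 24 the highest of the 8 libraries was KO replicate 2. Slc25a20, the carnitine carrier of the inner mitochondrial membrane, stood at 78.3, 69.3, 81.9 and 100.03 CPM in WT and at 91.9, 144, 100.3 and 90.5 CPM in KO (log2 fold change 0.37, SE 0.17, unadjusted p = 0.0387, edgeR adjusted p = 1). Acadm, the medium-chain acyl-CoA dehydrogenase, stood at 544, 517, 508 and 507 CPM in WT and at 556, 916, 520 and 599 CPM in KO (0.32, SE 0.17). Acsl1, which activates fatty acids, had 0.16. Over the fits that left out 1 library the median of the list ran from 0.06, without KO replicate 2, to 0.25, without KO replicate 3.

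Nuclear-encoded genes of oxidative phosphorylation lay above 0 in 24 of 27 cases (median 0.16), all with intervals within 1 of 0, and 25 of the 27 were highest in KO replicate 2. Sdha, of complex II, stood at 748, 708, 754 and 882 CPM in WT and at 913, 1282, 768 and 639 CPM in KO (0.22, SE 0.18). Atp5b and Atp5a1, of the ATP synthase, had 0.14 and 0.15, and Ndufa9, of complex I, 0.19. Without KO replicate 2 the list median was −0.0010 and Sdha stood at −0.0010, and without KO replicate 4 the median was 0.27. The 13 transcripts of the mitochondrial genome lay above 0 in 11 cases (median 0.12), with mt-Co1 at 0.16 and mt-Cytb at 0.18, and their median was −0.06 without KO replicate 2 and 0.29 without WT replicate 4.

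Thermogenic adipocyte genes lay above 0 in 13 of 17 cases, with a median of 0.28, and 11 of the 17 were highest in KO replicate 2. Ucp1, the uncoupling protein of heat-producing fat cells, stood at 26.7, 27.7, 10.5 and 222 CPM in WT and at 141, 172, 73.6 and 32.9 CPM in KO (0.55, SE 0.78). The highest Ucp1 library of all was therefore a WT library, replicate 4, and both groups spanned several-fold. Cidea, a lipid droplet protein of such cells, stood at 121, 105, 72.2 and 312 CPM in WT and at 205, 320, 185 and 92.1 CPM in KO (0.40, SE 0.43). Ucp1 stood at 2.28 without WT replicate 4 and at 0.19 without WT replicate 3, and Cidea at 1.01 without WT replicate 4 and at 0.073 without KO replicate 2. Cox8b and Otop1 had 0.39 and 0.40. The list median was 0.11 without KO replicate 2 and 0.47 without WT replicate 4. Replicate 2 of KO also had the lowest muscle score, 0.64, and a lymphoid score of 1.42; their part in its mitochondrial levels was not tested. With both scores as covariates and KO replicate 2 kept, the medians of these 4 lists were all above 0, which does not test that part.

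**Figure D4:**
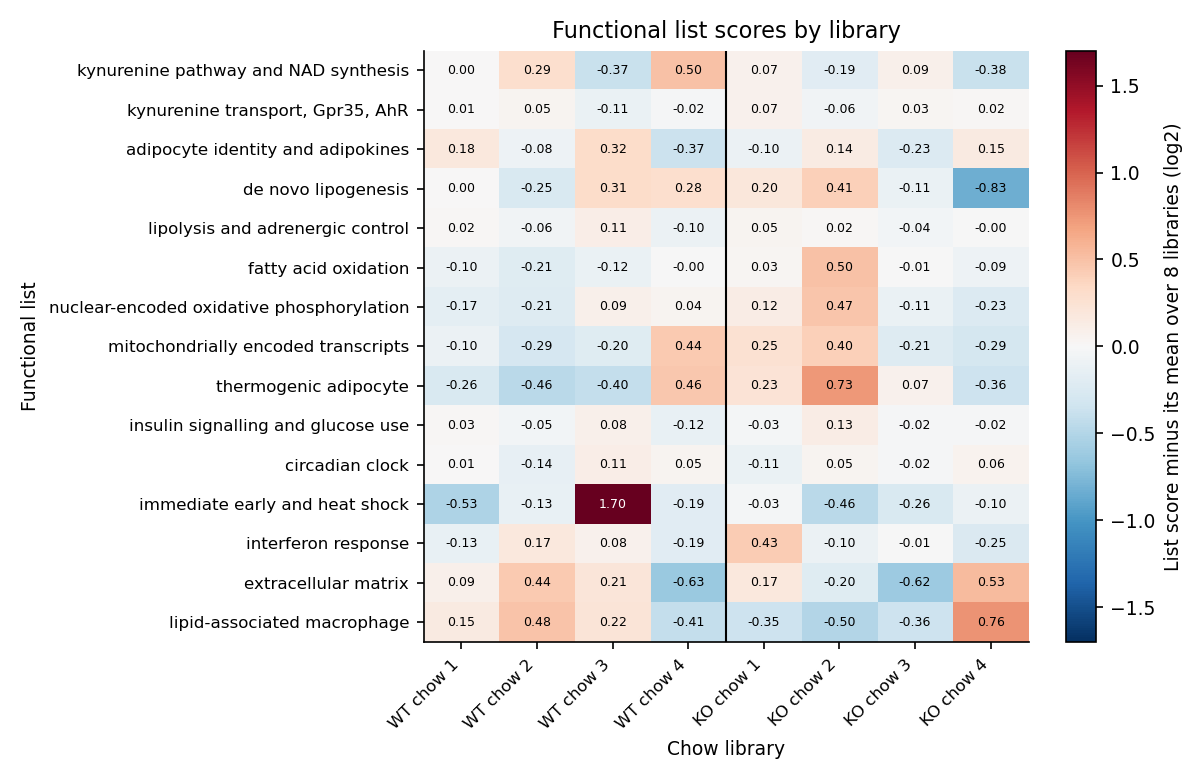
Scores of the 15 functional lists in each chow library, as the difference from the list's mean over the 8 libraries (log2 units, colour scale), with WT left and KO right of the line. KO replicate 2 is high in the oxidation, oxidative phosphorylation and thermogenic lists, KO replicate 4 low in lipogenesis, and WT replicate 3 high in immediate early genes; the kynurenine list includes Kmo.

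Lipogenic genes lay below 0 in 18 of 21 cases, with a median of −0.09 and no call, and KO replicate 4 was the lowest library in 13 of them. Acly, the ATP citrate lyase that supplies acetyl-CoA, stood at 1443, 1389, 2553 and 2298 CPM in WT and at 2182, 2185, 1268 and 528 CPM in KO (log2 fold change −0.32, SE 0.37). Fasn, fatty acid synthase, stood at 10566, 9828, 15032 and 14331 CPM in WT and at 13616, 13621, 9137 and 5013 CPM in KO (−0.27, SE 0.32). Scd1, the stearoyl-CoA desaturase and the most abundant transcript of all 8 libraries, had 62067 to 65212 CPM in WT and 31712 to 84486 CPM in KO (−0.12, SE 0.29). KO was thus more scattered than WT in Scd1 and held both the highest and the lowest library. Fads1, a fatty acid desaturase, had −0.27. The list median was −0.0025 without KO replicate 4 and −0.30 without KO replicate 2. Without KO replicate 2 Acly stood at −0.53 and Fasn at −0.43, and without KO replicate 4 at −0.031 and −0.037.

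Genes of adipocyte identity and adipokines were divided 6 above and 9 below 0 (median −0.0011), with 14 of 15 intervals within 1 of 0. Fabp4 had 0.17, Car3, a carbonic anhydrase abundant in fat, −0.05, and Lpl, lipoprotein lipase, −0.0011. Rbp4, retinol binding protein 4, stood at 481, 380, 759 and 301 CPM in WT and at 371, 379, 306 and 366 CPM in KO (−0.43, SE 0.23), with WT replicate 3 the highest. Lipolysis and adrenergic genes lay above 0 in 8 of 11 cases (median 0.05). The lipases Pnpla2, Lipe and Mgll, which act on tri-, di- and monoglycerides in turn, had 0.06, 0.02 and 0.05, with all 3 intervals within 1 of 0, and Adrb1, a beta-adrenergic receptor, had −0.34 (SE 0.36). Insulin signalling and glucose use had 7 of 11 above 0 (median 0.04) and all intervals within 1 of 0, with Akt2 at 0.10, Pik3r1 at 0.01 and Pck1 at 0.11. Clock genes had 8 of 14 above 0 (median 0.03): Per3 0.09, Nr1d1 −0.04, Tef 0.12 and Cry1 0.33.

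**Figure D5:**
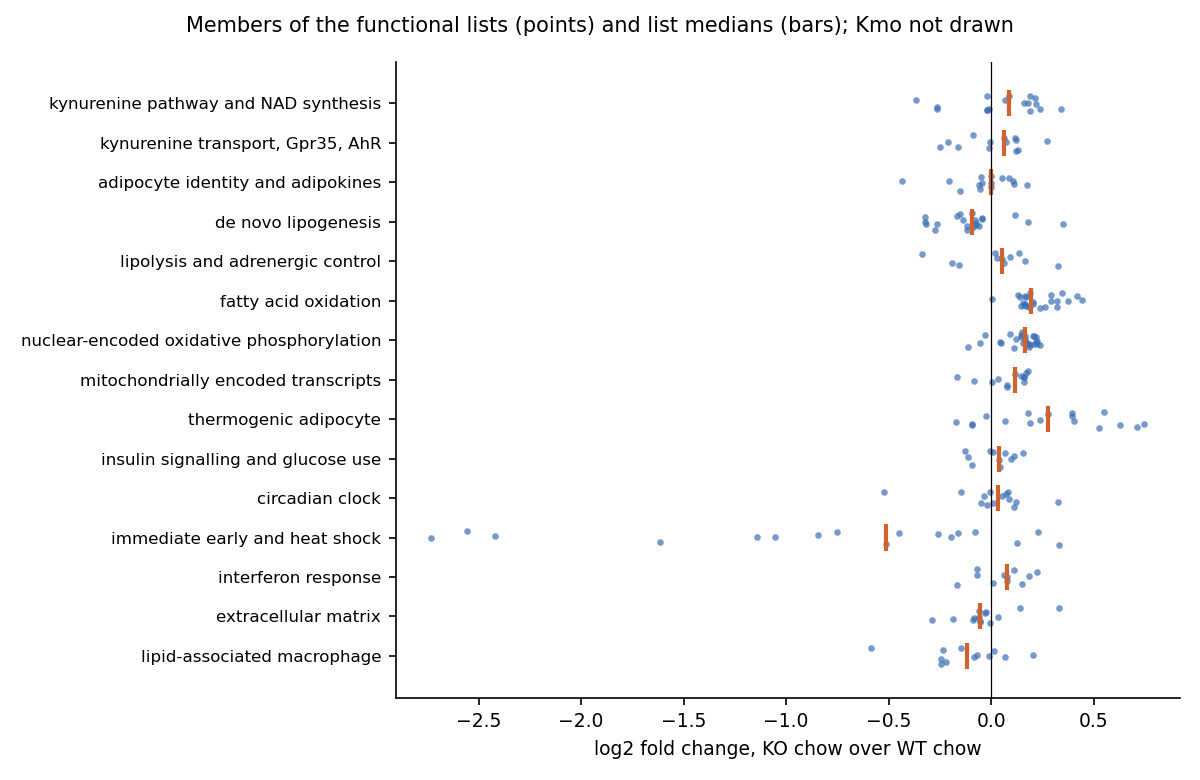
Log2 fold changes of KO over WT on chow (x axis) for the tested members of 15 functional lists (points) with each list's median (bar); Kmo is not drawn. Points of fatty acid oxidation lie to the right of 0 in 24 of 24 cases, and immediate early and heat shock genes reach furthest to the left, down to −2.73.

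Immediate early and heat shock genes had the lowest median of the functional lists, −0.51, with 14 of 17 below 0. WT replicate 3 was the highest of the 8 libraries in 14 of the 17 genes. Egr1, a transcription factor that is switched on within minutes of a stimulus, stood at 26.5, 27.2, 607 and 26.7 CPM in WT and at 39.1, 26.2, 17.9 and 33.7 CPM in KO (log2 fold change −2.56, SE 1.05, unadjusted p = 0.0302, edgeR adjusted p = 1). Zfp36, which destabilises messenger RNA, stood at 154 CPM in WT replicate 3 and at 46.3 to 67.4 CPM in the other 7 libraries (−0.51, SE 0.30). Jun was not lower in KO, at 44.2 to 82.4 CPM in WT and 60.2 to 89 CPM in KO (0.33, SE 0.17). Without WT replicate 3 the list median was 0.10 and Egr1 stood at 0.12, and without WT replicate 2 the median was −0.67. WT replicate 3 also had the highest muscle score, 7.24, and the lowest lymphoid score, 0.07.

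Interferon response genes lay above 0 in 8 of 11 cases (median 0.08): Gbp2 had 0.22 and Bst2 −0.07, and KO replicate 1 was the highest library in 7 of the 11. The median was −0.11 without KO replicate 1 and 0.16 without KO replicate 4. Extracellular matrix genes lay below 0 in 11 of 14 cases, with a median of −0.05 that was −0.30 without KO replicate 4 and 0.12 without KO replicate 3. Sparc, a collagen-binding matrix protein, stood at 3693, 3889, 4147 and 1860 CPM in WT and at 3380, 2978, 1962 and 5585 CPM in KO (0.03, SE 0.29), and Col3a1, Col4a1 and Postn had −0.09, −0.06 and 0.33. In both genotypes the lowest Sparc value belonged to the library with the highest lymphoid score. Lipid-associated macrophage genes lay below 0 in 9 of 12 cases (median −0.12), with KO replicate 4 the highest library in 6 of them, and the median was −0.52 without that library and 0.012 without WT replicate 2. Spp1, osteopontin, stood at 5.08, 10.2, 7.25 and 1.85 CPM in WT and at 1.07, 2.71, 2.42 and 10.01 CPM in KO (−0.59, SE 0.59). Ctsd, Fabp5 and Cd63 had −0.08, −0.24 and −0.07.

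The cell type marker lists showed no called gene either. Macrophage markers lay below 0 in 11 of 13 cases (median −0.16), and WT replicate 2 was the highest library in 12 of the 13. C1qb, a complement component of macrophages, stood at 95.8, 229, 97.3 and 98.7 CPM in WT and at 188, 79.7, 74.7 and 114 CPM in KO (−0.19, SE 0.33). Each genotype thus held 1 library rich in macrophage transcripts, WT replicate 2 and KO replicate 1, which also had the highest progenitor scores, 6.91 and 6.70. The macrophage median was 0.25 without WT replicate 2 and −0.51 without KO replicate 1. Csf1r, Mrc1 and Cd68 had −0.14, −0.16 and −0.32. Progenitor and fibroblast markers lay below 0 in 10 of 12 cases (median −0.14, Dcn −0.14, Ly6a −0.06), with a median of −0.33 without KO replicate 1 and 0.10 without WT replicate 2.

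Endothelial markers lay above 0 in 13 of 15 cases (median 0.17), all with intervals within 1 of 0, and KO replicate 4 was the highest in 9. Their median was 0.043 without KO replicate 4 and 0.36 without WT replicate 3. Pecam1, an adhesion molecule of vessel walls, stood at 147, 145, 168 and 142 CPM in WT and at 155, 143, 167 and 192 CPM in KO (0.13, SE 0.17), and the groups overlapped. Cdh5, Kdr and Emcn had 0.17, 0.18 and 0.30. All 5 erythrocyte markers lay above 0 (median 0.46, and 0.27 to 0.63 with 1 library left out). Hbb-bs, an adult beta globin, stood at 107, 203, 173 and 85 CPM in WT and at 243, 191, 123 and 226 CPM in KO (0.46, SE 0.30); globin genes are near-identical copies and their counts are uncertain. Nerve markers had 4 of 5 below 0 (median −0.12, Mbp −0.11), and the skin keratinocyte markers Krt5 and Krt14 had too few counts to be tested.

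Lymphoid and muscle transcripts gave the widest intervals of the lists. T cell markers lay below 0 in 11 of 14 cases (median −0.17) and B cell markers in 14 of 14 (median −0.26), and the median half-widths of their intervals were 3.11 and 3.71 log2 units. Ccl21a, a chemokine of lymph node stroma, stood at 0.652, 38.4, 0.200 and 55.2 CPM in WT and at 20.5, 0, 38.4 and 0.313 CPM in KO. For this gene both genotypes thus ran from near 0 to well above 10 CPM. The B cell median was 0.53 without WT replicate 4 and −1.08 without KO replicate 3, and the T cell median 0.96 and −1.41. Ighm, the heavy chain of immunoglobulin M, was spread less, at 446 to 742 CPM in WT and 314 to 759 CPM in KO (−0.16, SE 0.25).

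Skeletal muscle markers lay below 0 in 16 of 18 cases, with a median of −1.69. Myh4, a fast myosin heavy chain, stood at 288, 16.9, 1602 and 6.45 CPM in WT and at 221, 1.7, 1.63 and 223 CPM in KO (log2 fold change −2.10, SE 1.85). Acta1, skeletal actin, stood at 171, 39.8, 911 and 49.7 CPM in WT and at 160, 11.9, 7.8 and 186 CPM in KO (−1.68, SE 1.18). The libraries richest in muscle transcripts were WT replicate 3, highest in 16 of 18 genes, then WT replicate 1 and KO replicates 1 and 4 at similar levels. Without WT replicate 3 the list median was 0.29 and Myh4 stood at 0.11, and without KO replicate 4 the median was −2.16. The 10 genes with the largest SD over the 8 libraries, chosen without regard to genotype, were all of these kinds: Ckm, Myh4, Mylk4, Actn3, Xirp2, Pvalb, Atp2a1 and Tnni2 of muscle and Ccl21a and Apol7c, which was the leading gene of the first component. None of the 10 had groups without overlap.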

How the data were processed

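RNA-seq of inguinal white fat was analysed from 16 libraries, of which the 8 from mice on chow are compared. Per the submitters' processing notes, the authors used STAR 2.7.3a, featureCounts 2.0.3, GRCm38.p6 and Ensembl annotation 102, and they deposited raw counts of read pairs per gene, made without strand per the file headers. The log2 fold changes and p-values of the authors' deposited table stand in DESeq2's columns per the file headers, and the name of the table says that the fold changes were shrunken.

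Counts of all 16 libraries were fitted in edgeR 4.0.16 (R 4.3.3, limma 3.58.1) with TMM factors, filterByExpr, robust quasi-likelihood dispersion and a mean for each of 4 groups, and KO was compared with WT on chow. P-values were adjusted over the 16549 genes tested, with a threshold of 0.05, and the code was tested on simulated data. Levels are CPM, and log2 CPM used a prior count of 2. The score of a list averages log2 CPM over its members, and lists were described by counts and medians without a test. P-values of this fit rest on the spread between libraries within a group, estimated jointly over the 4 groups of all 16 libraries. That estimate also draws on the other genes. Each library is one labelled replicate. Intervals on counts cover counting error only.

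Members and lists were chosen with earlier results of these data known. The named genes were Kmo, every called gene, the 10 with the smallest p on each side with at least 1 CPM in a group (predicted genes left out), the 10 with the largest SD over the 8 chow libraries, those within 2 Mb of Kmo, the kynurenine lists, and of each of the other lists up to 4 members by abundance and p; some of these genes are not reported here. The 26 lists are 15 functional and 11 of cell type markers; those not described in the text, lymph node stroma and epithelium, had medians of −0.14 and 0.23 with no call. Symbols of 55141 genes came from the reference table, 13 from the authors' table, and 333 had none. Alternatives were other normalizations, filters, tools (DESeq2 1.42.0, limma-voom), the 8 chow libraries alone, the replicate block, lymphoid and muscle scores as covariates, and leaving out each library. Limma-voom was run with sample quality weights wherever it is named, and was not run without them. Leaving out the 4 chow libraries with a lymphoid score over 4 was added after seeing the data.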

Additional observations from a re-analysis of the deposited data

Results flagged for a closer look

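In each genotype, 1 of the 4 chow libraries was set apart from the other 3 when its distance to the nearest of them, divided by the whole range of the 4, exceeded Dixon's 95% critical value for 4 values. This was met in 27 of 320 sets of 4 values, 8.44%, from named genes and list scores. Chance gives about 1 in 20 for normal values. The CPM were not put on a log scale here, and some genes were chosen by p or by spread. The share found therefore cannot be set against that rate, and genes that share a library are not independent.

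WT replicate 3 stood above the other WT libraries in muscle genes. The distance over the range was 0.849 for Acta1 (911 CPM against at most 171), 0.830 for Ckm (402 CPM against at most 69.2), 0.899 for Pvalb (451 CPM against at most 47.3) and 0.864 for Tnni2 (316 CPM against at most 44.5). The same library was set apart in genes of the early response, with 0.999 for Egr1 (607 CPM against at most 27.2), 0.962 for Egr2 and 0.888 for Zfp36. It was also set apart with 0.952 for Slfn4 and 0.866 for Rgs7 (30.5 CPM against at most 25.3).

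WT replicate 2 was set apart above in the macrophage genes C1qb (0.979, 229 CPM against at most 98.7), Csf1r (0.910, 224 CPM against at most 106) and Cd68 (0.901, 61.9 CPM against at most 32.6), and below in Mtx1 (0.876) and S100b (0.836). WT replicate 4 stood above in Ucp1 (0.919, 222 CPM against at most 27.7) and below in Pnpla2 (0.886) and in the amino acid carrier Slc36a4 (0.940, 21.5 CPM against at least 35.5). WT replicate 1 was below in Ripply3 (0.878).

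Among KO libraries, Kmo itself was set apart in replicate 2 (0.852), where its level was 0.543 CPM against at most 0.188. That difference comes from 8 counts against 2 to 3. The score of insulin signalling and glucose use was also set apart in KO replicate 2 (0.943, 7.39 against at most 7.24). KO replicate 4 was set apart in Slc3a2 (0.968, 123 CPM against at most 79.7), in the lipid-associated macrophage score (0.880, 6.18 against at most 5.07) and, below, in Ahrr (0.931). KO replicate 3 stood above in Apol7c (0.832, 93.4 CPM against at most 15.9) and below in the erythrocyte score (0.915), and KO replicate 1 above in Bst2 (0.851) and Ifi211 (0.966, 10.9 CPM against at most 4.63).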

How the results depend on the processing

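Kmo was below 0 in all 28 alternative fits, and no other gene was called in any of them. Its call held with relative log expression factors (edgeR adjusted p = 0.0248), upper-quartile factors (0.0261), DESeq2 (1.56e-11), a CPM filter (0.0243) and with the lymphoid score, the muscle score or both as covariates. The count of called genes fell from 1 to 0, with Kmo at −5.20 in limma-voom, at −5.37 without a filter (edgeR adjusted p = 0.114, over more genes tested), at −5.39 with the 8 chow libraries alone and at −3.80 with the 4 lymphoid-rich chow libraries left out; the cause was not tested. When 1 library was left out the count was 0 to 1 and Kmo −5.99 to −4.98, with the call lost in 12 of 16 fits. Replicate numbers were shared by the groups and were not taken as pairs. Same-numbered WT and KO libraries deviated in opposite directions, with correlations of −0.34, −0.36, −0.67 and −0.69 over genes. These deviations include the lymph node and muscle transcripts, so they cannot decide whether the samples were paired by litter or batch. With the replicate block Kmo was −5.36 (edgeR adjusted p = 0.00218), 1 gene was called, and 109 genes had an unadjusted p under 0.05, where limma-voom had 83 and the reported fit 166.

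Of 132 named genes other than Kmo, none called, 68 changed sign in at least 1 fit, and 19 of 26 list medians did; 8 of 728 list medians moved by more than 1 SD of the list's score. Each such gene's log2 fold change is given for the fits in which its sign differed from the reported one; the cause was not tested. With upper-quartile factors it was Lpl 0.0067. With limma-voom it was Ahr −0.0074, Cyp1a1 0.18, Got2 0.019, Gpr35 0.013, Nqo1 −0.028, Per3 −0.036, Qprt 0.65 and Sparc −0.030. With no filter it was Lpl 0.0023. With the 8 chow libraries alone it was Lpl 8.1e-06. With the replicate block it was Apol7c −0.67, Atp2a1 0.11, Cyp1a1 0.12, Ifi208 −0.24, Lpl 0.028, Myh4 0.0035, Nr1d1 0.0044, Pvalb 0.36, Qprt 0.19 and Tnni2 0.28. With the lymphoid score as a covariate it was Cyp1a1 0.00093, Qprt 0.37 and Sparc −0.031. With the muscle score as a covariate it was Col4a1 0.060, Cyp1a1 0.027, Lpl 0.12, Nr1d1 0.13, Pnpla2 −0.0048, Pvalb 0.21, Qprt 0.050 and Tnni2 0.26. With both scores it was Cyp1a1 0.055, Fh1 −0.016, Haao 0.042, Lpl 0.056, Nr1d1 0.17, Pnpla2 −0.017, Pvalb 0.26, Qprt 0.35 and Tnni2 0.26. With the 4 lymphoid-rich chow libraries left out it was Apol7c −0.34, Arnt 0.035, C1qb 0.0067, Csf1r 0.094, Dcn 0.048, Gpr35 0.0013, Ifi203-ps −0.0070, Ighm 0.14, Lipe −0.0087, Mrc1 0.082, Naprt 0.040, Nmnat3 0.10, Pik3r1 −0.16, Qprt 1.28 and Spp1 0.050.

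Over the fits that left out 1 library each, the log2 fold changes that changed sign ranged as follows, gene by gene: Acta1 −2.29 to 0.074, Adrb1 −0.52 to 0.14, Afmid −0.24 to 0.43, Ahr −0.025 to 0.26, Apol7c −2.11 to 1.75, Arnt −0.077 to 0.035, Atp2a1 −2.17 to 0.37, Bst2 −0.26 to 0.026, C1qb −0.54 to 0.23, Car3 −0.20 to 0.044 and Ccl21a −1.76 to 0.18 The same range was Cd68 −0.51 to 0.0095, Cdh5 −0.020 to 0.36, Ckm −2.52 to 0.41, Col3a1 −0.28 to 0.092, Col4a1 −0.34 to 0.11, Cox8b −0.088 to 0.61, Csf1r −0.43 to 0.25, Ctsd −0.13 to 0.010, Cyp1a1 −0.32 to 0.42 and Cyp1b1 −0.086 to 0.27 It was Dcn −0.40 to 0.26, Egr1 −2.91 to 0.12, Fabp5 −0.37 to 0.0060, Fh1 −0.11 to 0.19, Got2 −0.14 to 0.14, Gpr35 −0.50 to 0.26, Haao −0.89 to 0.55, Ifi203 −0.54 to 0.038, Ifi203-ps −0.14 to 0.18, Ifi204 −0.44 to 0.026, Ifi208 −1.16 to 1.35, Ifi209 −1.13 to 0.20, Ighm −0.40 to 0.019 and Kynu −1.01 to 0.26 Further ranges were Lipe −0.062 to 0.088, Lpl −0.15 to 0.17, Ly6a −0.26 to 0.15, Mgll −0.032 to 0.17, Mrc1 −0.47 to 0.34, mt-Co1 −0.043 to 0.29, mt-Cytb −0.049 to 0.33, Myh4 −2.68 to 0.11, Mylk4 −2.64 to 0.21, Nampt −0.036 to 0.33 and Naprt −0.11 to 0.086 The range was Nmnat2 −0.027 to 0.51, Nmnat3 −0.14 to 0.094, Nnmt −0.026 to 0.36, Nqo1 −0.13 to 0.32, Nr1d1 −0.15 to 0.086, Pck1 −0.034 to 0.29, Per3 −0.091 to 0.28, Pik3r1 −0.057 to 0.080, Pmel −0.91 to 0.46, Pnpla2 −0.039 to 0.14 and Pvalb −2.40 to 1.10 Others were Qprt −0.35 to 0.63, Scd1 −0.35 to 0.087, Sdha −0.0010 to 0.35, Slc3a2 −0.13 to 0.18, Slc7a5 −0.52 to 0.073, Slc7a8 −0.44 to 0.057, Sparc −0.29 to 0.23, Tdo2 −0.93 to 0.39, Tiparp −0.011 to 0.23 and Tnni2 −2.09 to 0.91

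Most genes below 1 CPM, and most marker genes of lymph node and muscle (not Ighm), had intervals that reached past a doubling at this depth and spread.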
